A study of Arabidopsis thaliana with 48 samples.

Results

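The daily course of gene expression was compared between Arabidopsis thaliana wild type (ecotype Columbia) and aba1-6, a mutant of ABA1, in 32 of the 48 RNA-seq libraries of the study. The 32 libraries are every library of those genotypes, and the other 16, of the gi-2 mutant, enter only a count given near the end. ABA1 encodes zeaxanthin epoxidase, an early enzyme of abscisic acid (ABA) synthesis, and aba1-6 is known as an ABA-deficient mutant. These data hold no measurement of ABA itself. Both genotypes grew in short days of 8 h light until 3 weeks of age and were moved to long days 8 h after lights on, on the day of harvest. Harvest times are zeitgeber times (ZT), the hours since the lights came on. Plants harvested at ZT1 and ZT8 had seen short days alone, and those harvested at ZT12 and ZT16 had seen the lengthened light. Each genotype was kept at a relative soil water content of 80 to 90% (normal watering) or at 30% (drought) from soon after germination. Each of the 16 combinations of genotype, watering and time has 2 libraries, so that each genotype and time has 4. A library pooled about 50 seedlings from 3 pots and held the parts above the hypocotyl. A line short of ABA all its life may differ from wild type in more than its present hormone level, and the labels name no complemented line.

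ABA is bound by receptors of the PYR/PYL family, which then block the type 2C protein phosphatases, of which ABI1 is a member. This frees SnRK2 kinases to activate ABF transcription factors at genes with ABA-responsive elements in their promoters. The hormone closes stomata, and its targets include dehydrins, osmolyte enzymes and the phosphatases themselves. In leaves, ABA signalling and the circadian clock are known to be linked, with many ABA-responsive genes cycling over the day.

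Library totals ranged from 1920012 to 26925706 counts, with a median of 9544747. The median per genotype and time was lowest in wild type at ZT12, at 5458625. Summed over a photosynthesis list, the libraries held from 37090 to 90780 CPM (counts relative to library size), as green tissue does. Sums over marker lists used library totals alone, whereas the CPM of single genes were TMM-scaled. Root markers summed to between 595.5 and 1333 CPM, and 1 aba1-6 library at ZT1 stood highest. Floral markers summed to at most 10.9 CPM. ABA1 transcript was present in aba1-6, and no label says that the allele removes it, which leaves the genotype unchecked by its level. ABA1 averaged 805 ± 140 CPM (SD, n = 4) in wild type and 626 ± 45 CPM (SD, n = 4) in aba1-6 at ZT1, and its course was not called (edgeR adjusted p = 0.97). Libraries of the same group are biological replicates by their labels. In whole shoots, a change in cell number and a change in RNA per cell cannot be told apart.

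A gene was said to have an altered course where the difference between the genotypes depended on time. The test was edgeR's quasi-likelihood F-test with 3 degrees of freedom, watering as a block, and a Benjamini-Hochberg adjusted p under 0.05. Of 18589 genes tested, 89 (0.479%) were called. Time of day itself moved far more genes, 9633 (51.8%) in wild type and 9352 (50.3%) in aba1-6. Among the 89 genes, 86 had a time effect in wild type and 77 in aba1-6. An altered course requires a change over time in wild type, in aba1-6 or in both, so high numbers follow from the selection. The mean difference between genotypes over the day was called for 57 of the 89, against 27.3% of all genes tested.

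The size of the list depended on single libraries. It fell to 15 genes without wild type under drought at ZT1, replicate 2, and to 38 without replicate 1 of that group. It was 53 without wild type under normal watering at ZT1, replicate 1, and 148 without replicate 2 of that group. Without aba1-6 at ZT1 it was 55 (normal watering, replicate 1), 41 (normal, replicate 2), 41 (drought, replicate 1) and 43 (drought, replicate 2). It was 58 without aba1-6 under normal watering at ZT8, replicate 2, 52 without aba1-6 under normal watering at ZT16, replicate 2, and 58 without aba1-6 under drought at ZT16, replicate 1. The replicate numbers paired the wild-type libraries across times. With the number as a block within each genotype, 226 genes were called, and these held all 89.

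The departure of a gene at a given time is the log2 difference aba1-6 minus wild type at that time, less the mean of the same difference at the other 3 times. The largest departure lay at ZT1 for 74 of the 89 genes (83.1%), against 36.3% of all genes tested. At ZT1, 25 of them were relatively higher in aba1-6 and 49 relatively lower. At ZT8 the split was 1 higher and 6 lower, at ZT12 it was 0 and 1, and at ZT16 it was 3 and 4. The size of the largest departure had a median of 0.80, from 0.41 to 3.49 among genes with reads in every group.

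**Figure D1:**
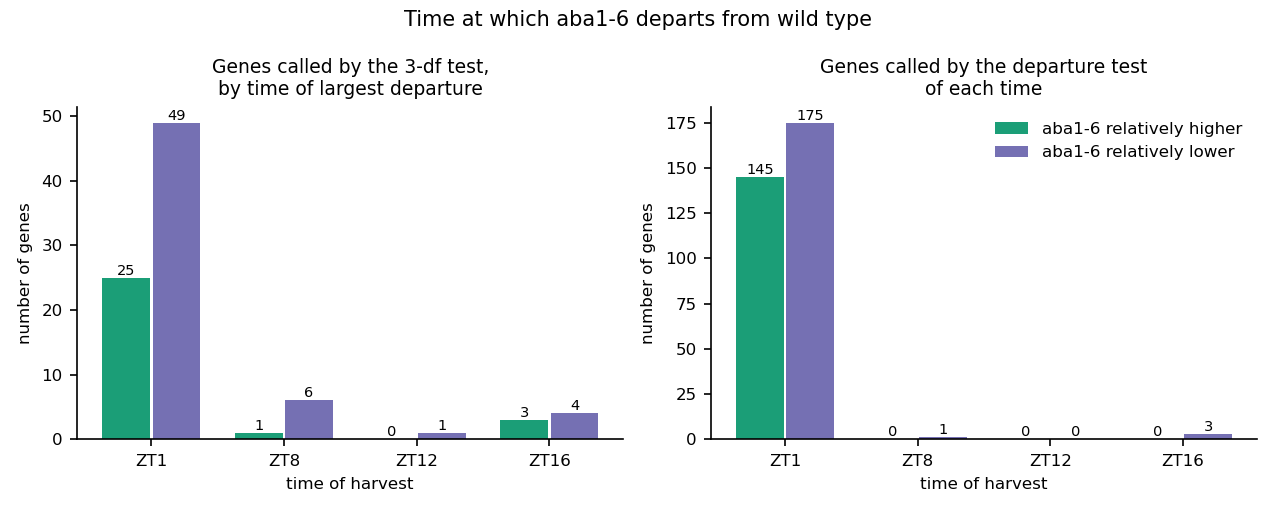
The left bars count the 89 genes called by the 3-degree-of-freedom test (y axis, number of genes) by the time of their largest departure, and the right bars count the genes called by the separate departure test of each time. Green bars are genes relatively higher and violet bars genes relatively lower in aba1-6 at that time. ZT1 holds 25 and 49 genes on the left, and 145 and 175 on the right.

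When each departure was tested for itself, 320 genes (1.72%) were called at ZT1, 145 higher (0.78%) and 175 lower (0.941%) in aba1-6. At ZT8 only 1 gene was called (0.00538%), lower in aba1-6 (0.00538%), with 0 higher. At ZT12 the edgeR test called 0 genes (0%), and DESeq2 also called 0. In edgeR, 692 genes had an unadjusted p under 0.05 at ZT12, and 2707 had one at ZT1. Among 18589 genes without any effect, that threshold would pass more than 692. At ZT16 the edgeR test called 3 (0.0161%), all lower (0.0161%), with 0 higher. The replicate block raised the count to 694 at ZT1 (313 higher, 381 lower), to 12 at ZT8 and to 13 at ZT16. Over the fits that left out 1 library, the count ran from 0 to 10 at ZT8 and from 0 to 11 at ZT16. With library totals as the only scaling, the split at ZT1 turned to 289 higher and 132 lower, while the median departure of all genes moved from -0.02 to 0.04. Genes departing upward outnumbered those departing downward in 6 of the 11 other settings, so which direction prevailed depended on the processing. The count at ZT1 was 95 without wild type under drought at ZT1, replicate 2, and 147 without replicate 1 of that group. It was 176 without aba1-6 under normal watering at ZT1, replicate 2, and 191 without aba1-6 under drought at ZT1, replicate 1.

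Of the 145 genes that departed upward, 82 were called higher in aba1-6 at ZT1 itself, 0 lower, and 63 were not called at that time. Of the 175 that departed downward, 131 were called lower at ZT1, 1 higher, and 43 were not called. The departure at ZT1 contains the difference at ZT1 from the same libraries, so the shared direction follows largely from how these genes were chosen. At no single time was a difference called for 29 of the upward and 12 of the downward genes. For the whole transcriptome, the difference between genotypes was called for 1935 genes (10.4%) at ZT1, with 794 higher (4.27%) and 1141 lower (6.14%). The numbers were 1388 (7.47%) at ZT8, with 623 (3.35%) higher and 765 (4.12%) lower. They were 940 (5.06%) at ZT12, with 486 (2.61%) higher and 454 (2.44%) lower. They were 777 (4.18%) at ZT16, with 318 (1.71%) higher and 459 (2.47%) lower.

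Most ABA-induced genes were lower in aba1-6 in the morning and nearer to wild type at the end of the light extension. Of 37 genes on the list, 34 were in the table and 32 passed the filter on low counts. At ZT1, 25 of the 32 were called lower and 0 higher, and the median log2 difference was -1.55, against -0.01 for all genes tested. At ZT8 the median was -1.07 with 16 called lower and 1 higher, and at ZT12 it was -1.13 with 18 lower and 1 higher. At ZT16 it was -0.33 with 11 called lower and 0 higher. Over all genes tested, the shares called lower at ZT1, ZT8, ZT12 and ZT16 were 6.14%, 4.12%, 2.44% and 2.47%. The departure at ZT1 was below 0 for all 32, against 53.8% of all genes tested, and its median was -0.70. For 5 of the 32 it passed the test, all 5 lower, against 0.941% of all genes tested. Under normal watering the median departure at ZT1 was -0.46 (29 of 32 below 0) and under drought -0.75 (30 of 32). At ZT16 the median departure was 0.56, with 2 of 32 below 0. Over the 11 other settings of the analysis 30 or more of the genes in the list stayed below 0 at ZT1, and 29 or more when single libraries were left out. The 11 genes listed as guard cell markers, of cells that ABA acts on, include AHA1, PHOT1 and PATROL1. They summed to between 1286 and 1350 CPM in aba1-6 at ZT1 and to between 979.5 and 1241 CPM in wild type. The highest and median sums in aba1-6 were above those of wild type at the other times too. A sum can be carried by its most abundant members, so it does not measure the number of guard cells. At ZT1, ZT8, ZT12 and ZT16, 1, 2, 3 and 1 of the 11 were called higher and 0 lower at each time. The shares called higher over all genes tested were 4.27%, 3.35%, 2.61% and 1.71%. The part of guard cells in these results was not tested.

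**Figure D2:**
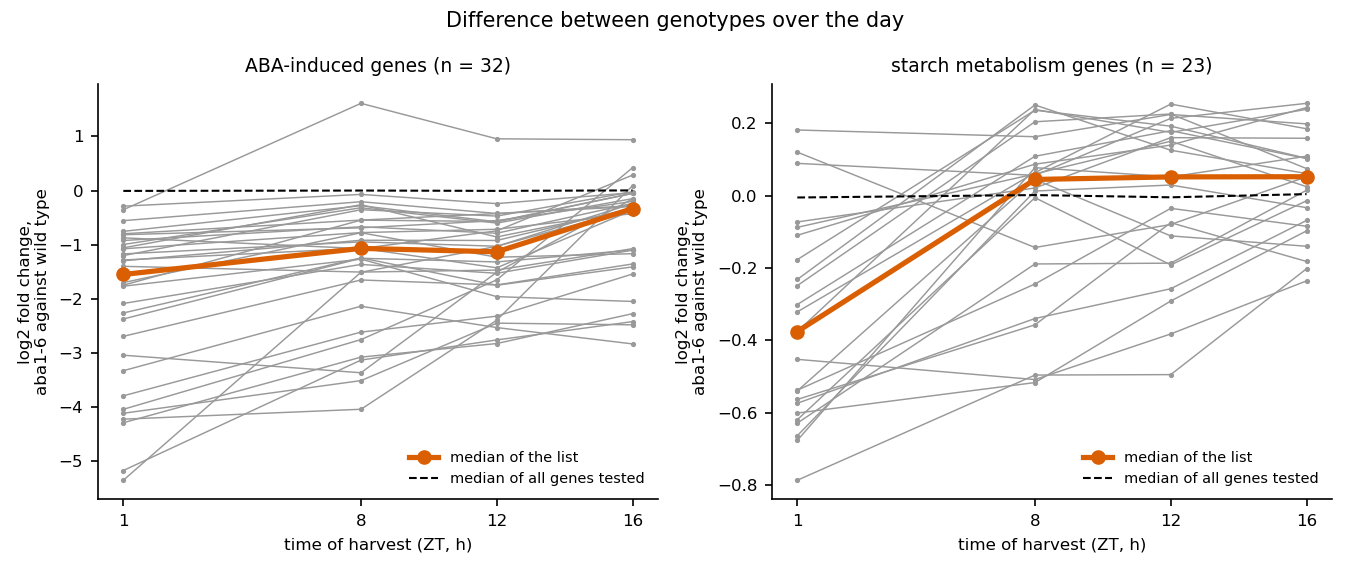
Each grey line is 1 gene of the ABA-induced list (left, n = 32) or of the starch list (right, n = 23), the x axis is the time of harvest (ZT, h) and the y axis is the log2 fold change of aba1-6 against wild type. The orange line is the median of the list and the dashed line the median of all genes tested. The median of the ABA-induced genes runs from -1.55 at ZT1 to -0.33 at ZT16, and the y axes of the panels differ.

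P5CS1, the rate-limiting enzyme of proline synthesis, was called among the ABA-induced genes. In wild type at ZT1 it was at 440.6 and 244.8 CPM under normal watering and at 960.1 and 1067 CPM under drought. In aba1-6 at that time it was at 142.8 and 100.9 CPM under normal watering and at 245.6 and 255.5 CPM under drought. Within each watering regime the genotypes did not overlap at ZT1. At ZT16 wild type had fallen to 186.9, 183.6, 437.9 and 384 CPM, in the order normal 1, normal 2, drought 1, drought 2 kept from here on, and aba1-6 stood at 158.4, 133.9, 557.9 and 414.2 CPM. Under drought P5CS1 thus overlapped between genotypes at ZT16 after standing apart at ZT1. Under normal watering both wild-type libraries stayed above both aba1-6 libraries at ZT16, by less than at ZT1. Its departure at ZT1 was -1.36 ± 0.26 (log2, SE), and the edgeR adjusted p of its course was 0.031. The call was lost in 11 of the 32 fits that left out a library, with an adjusted p of up to 0.103 without aba1-6 under drought at ZT1, replicate 1.

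ABI1, a type 2C phosphatase that restrains ABA signalling and is itself induced by ABA, also separated in the morning and met in the evening. It was at 107.7, 76.8, 137.4 and 162.7 CPM in wild type at ZT1 and at 52.7, 48.6, 72.8 and 65.4 CPM in aba1-6, with no overlap. At ZT16 wild type was at 61.4, 68.1, 80.9 and 67.6 CPM and aba1-6 at 53.5, 58.6, 73.9 and 67.8 CPM. The ranges overlapped by then. The departure of ABI1 at ZT1 was -0.64 ± 0.13 (log2, SE; edgeR adjusted p of the course 0.022), and leaving out wild type under drought at ZT1, replicate 2, raised that p to 0.0856, the highest of 5 such losses.

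NCED3, the 9-cis-epoxycarotenoid dioxygenase that limits stress-induced ABA synthesis downstream of ABA1, differed from the rest of the list at ZT8. In wild type it was at 8.85, 7.79, 15.7 and 24.7 CPM at ZT1 and at 8.74, 9.64, 10.4 and 12.7 CPM at ZT8. In aba1-6 it was at 5.78, 4.06, 21.9 and 13.8 CPM at ZT1 and at 21.5, 24.3, 39.4 and 44.7 CPM at ZT8. NCED3 overlapped between genotypes at ZT1, and at ZT8 every aba1-6 library was above every wild-type library. Its log2 difference was -0.35 ± 0.25 (SE) at ZT1 and 1.61 ± 0.25 (SE) at ZT8, where the edgeR adjusted p was 6.46e-05. The departure at ZT1 was -1.52 ± 0.30 (log2, SE; edgeR adjusted p of the course 0.027). That p rose to 0.126 without wild type under drought at ZT1, replicate 2, and the call was lost in 7 of 32 such fits. Of 17 genes of ABA synthesis, breakdown and transport that were tested, NCED3 alone was called (0.479% of all genes tested).

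The other ABA-induced genes whose departure at ZT1 passed its own test were RD29A, listed as LTI78, and AFP3. RD29A, a dehydration gene, was at 254.9, 192.2, 726.8 and 1080 CPM in wild type at ZT1 and at 64.2, 53.4, 142.8 and 130.6 CPM in aba1-6. RD29A (LTI78) departed by -1.15 ± 0.27 (log2, SE; edgeR adjusted p = 0.026), and AFP3, which codes for a negative regulator of ABA signalling, by -1.11 ± 0.28 (log2, SE; edgeR adjusted p = 0.031). The 3-degree-of-freedom test called neither, with adjusted p of 0.15 for both.

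**Figure D3:**
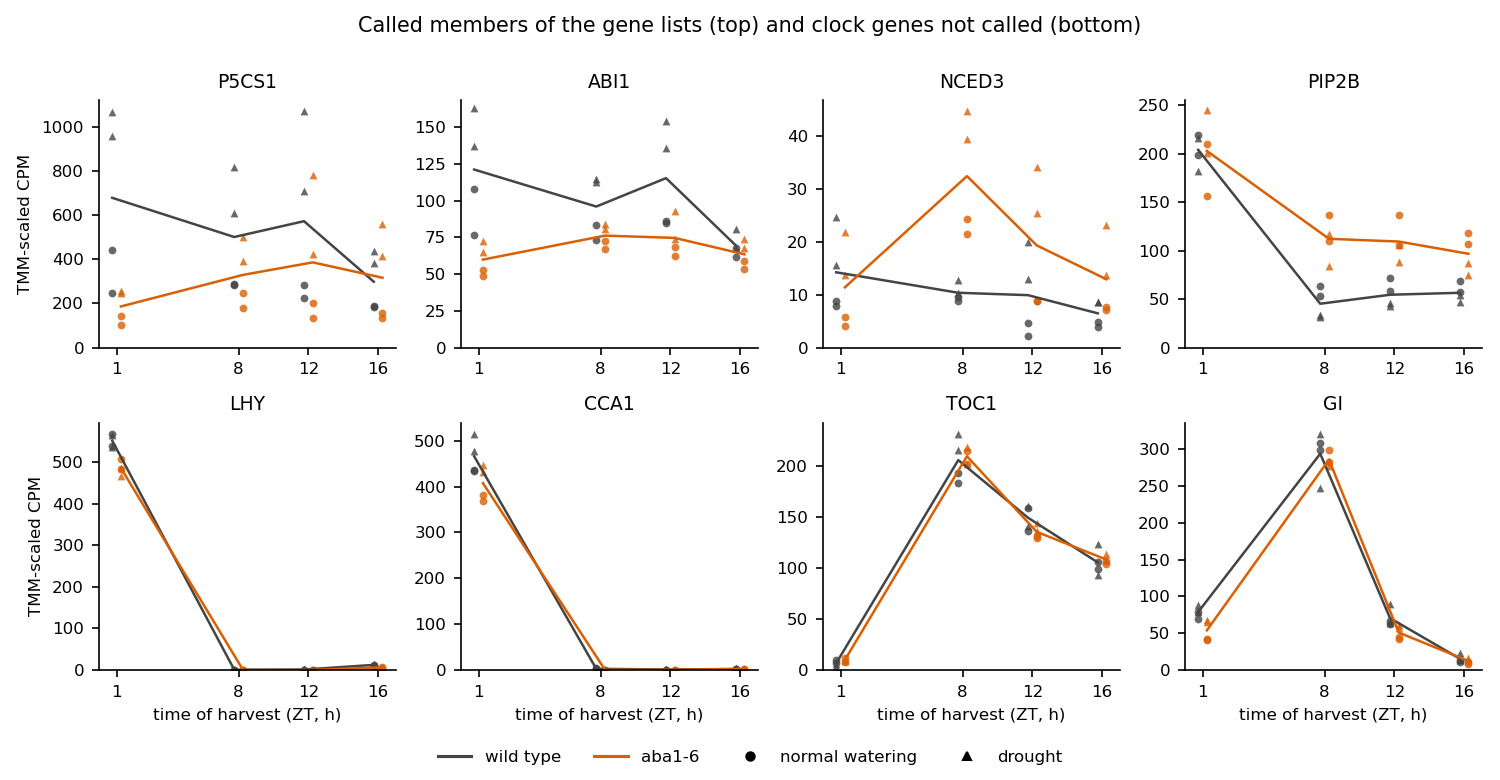
TMM-scaled CPM (y axis, linear, from 0) against time of harvest (ZT, h) for the 4 called genes of the lists discussed here (top) and for 4 clock genes that were not called (bottom). Grey is wild type, orange aba1-6, circles normal watering, triangles drought, each point 1 library and each line the mean of 4. P5CS1 separates at ZT1 within each regime and ABI1 over all libraries, and the means of both lie closer at ZT16. NCED3 and PIP2B separate at ZT8, and each clock gene peaks at the same time in both genotypes.

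PIP2B, a plasma membrane aquaporin, matched wild type at ZT1 and stayed higher in aba1-6 afterwards. At ZT1 it was at 218.7, 198.9, 216 and 182 CPM in wild type and at 209.8, 155.9, 244.5 and 200.6 CPM in aba1-6. At ZT8 it was at 53.1, 63, 33.5 and 31.2 CPM in wild type and at 137, 110.1, 117.6 and 83.9 CPM in aba1-6. The ranges overlapped at ZT1 and were apart at ZT8. The log2 difference of PIP2B was 0.01 at ZT1, 1.34 ± 0.16 (SE) at ZT8, 1.03 ± 0.17 at ZT12 and 0.76 ± 0.16 at ZT16, and the edgeR adjusted p of its course was 0.0125. It was the called gene among 8 plasma membrane aquaporins tested (0.479% of all genes tested). It kept its call in all 32 fits that left out a library. PIP2B has close copies among the aquaporins, with which it may share reads.

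The gene relatively higher at ZT1 with the largest departure was CRK14, a cysteine-rich receptor-like kinase. In wild type at ZT1 it was at 4.34, 4.63, 3.18 and 3.17 CPM, and in aba1-6 at 10.4, 9.21, 11.6 and 14.7 CPM. At ZT8 it was at 8.29, 5.59, 8.48 and 6.78 CPM in wild type and at 7.73, 2.98, 5.15 and 4.18 CPM in aba1-6. CRK14 thus rose after ZT1 in wild type and fell after ZT1 in aba1-6. Its departure at ZT1 was 1.96 ± 0.30 (log2, SE), the edgeR adjusted p of its course was 0.00538, and the call held in all 32 fits that left out a library. Of 29 CRK genes tested, 1 had an altered course (0.479% of all genes tested) and 3 departed upward at ZT1 (0.78% of all genes tested). The CRK genes were counted after their values were seen.

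The other genes named for a departure upward at ZT1 were AT5G39020 and AT3G04210. AT5G39020, a malectin-like receptor kinase by annotation, was at 2.34, 6.11, 4.09 and 3.17 CPM in wild type at ZT1 and at 7.75, 9.68, 9.72 and 10.4 CPM in aba1-6. AT3G04210, a TIR-NBS class resistance protein by annotation, was at 25.2, 42.5, 15.9 and 8.66 CPM in wild type at ZT1 and at 61, 70.6, 43 and 42.8 CPM in aba1-6. The genotypes did not overlap at ZT1 for either gene, and AT3G04210 was lower under drought in both. Their departures were 1.19 ± 0.24 (SE) for AT5G39020 and 1.19 ± 0.24 (SE) for AT3G04210 on the log2 scale, with edgeR adjusted p of 0.0395 and 0.042. The call was lost in 11 of 32 leave-one-out fits for AT5G39020, where p reached 0.149 without wild type under drought at ZT1, replicate 2. It was lost in 26 of 32 for AT3G04210, where p reached 0.114 without replicate 1 of that group.

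AT5G14120, a major facilitator superfamily protein by annotation, had an adjusted p of its course tied with that of CRK14 (edgeR, 0.00538). In wild type it was at 84.5, 64.4, 36.7 and 33.7 CPM at ZT1 and at 95.5, 64.6, 68.2 and 58.2 CPM at ZT16. In aba1-6 it was at 218.4, 213.9, 114.6 and 79.1 CPM at ZT1 and at 71, 88.1, 55.9 and 58.1 CPM at ZT16. AT5G14120 fell through the day in aba1-6, from above wild type within each regime at ZT1. At ZT16 it overlapped wild type under normal watering and lay just below it under drought. Its departure was 1.11 ± 0.18 at ZT1 and -1.01 ± 0.19 at ZT16 (log2, SE). Its promoter, from 250 bases before to 50 bases from the annotated start on the + strand, lies at chr5:4555571-4555870 in the RefSeq annotation of TAIR10.1. It is shown because the unadjusted p of AT5G14120, 1.13e-06, was the smallest among the named genes that depart most at ZT1 (1.56e-06 for CRK14), and the capitals mark an ABA-responsive element core (ACGTG, searched on both strands) at its first bases, read on the opposite strand.
AT5G14120: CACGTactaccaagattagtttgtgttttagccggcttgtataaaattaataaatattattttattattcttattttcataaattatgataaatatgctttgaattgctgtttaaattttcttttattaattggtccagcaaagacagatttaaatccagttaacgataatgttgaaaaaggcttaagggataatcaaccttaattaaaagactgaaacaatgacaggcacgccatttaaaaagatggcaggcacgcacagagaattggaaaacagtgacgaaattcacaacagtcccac

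After these values were seen, several endoplasmic reticulum genes were picked out among those relatively higher at ZT1. Other genes of that compartment were not counted, so the 4 do not stand for it. CNX1 codes for calnexin, a lectin chaperone, PDIL2-2 for a protein disulphide isomerase-like protein, ATERDJ3B for a DnaJ co-chaperone and UTR3 for a nucleotide sugar transporter. CNX1 was at 201.8, 212.3, 148.5 and 115.5 CPM in wild type at ZT1 and at 253.3, 248, 237 and 245.1 CPM in aba1-6. At ZT16 CNX1 was at 496.5, 409.9, 448.2 and 487.7 CPM in wild type and at 397, 384.1, 330.5 and 384.7 CPM in aba1-6. All 4 genes were low in the morning in wild type and stood higher in every aba1-6 library than in every wild-type library at ZT1. The departures at ZT1 were 0.74 ± 0.14 for CNX1, 0.81 ± 0.18 for PDIL2-2, 0.57 ± 0.11 for ATERDJ3B and 0.70 ± 0.15 for UTR3 (log2, SE).

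**Figure D4:**
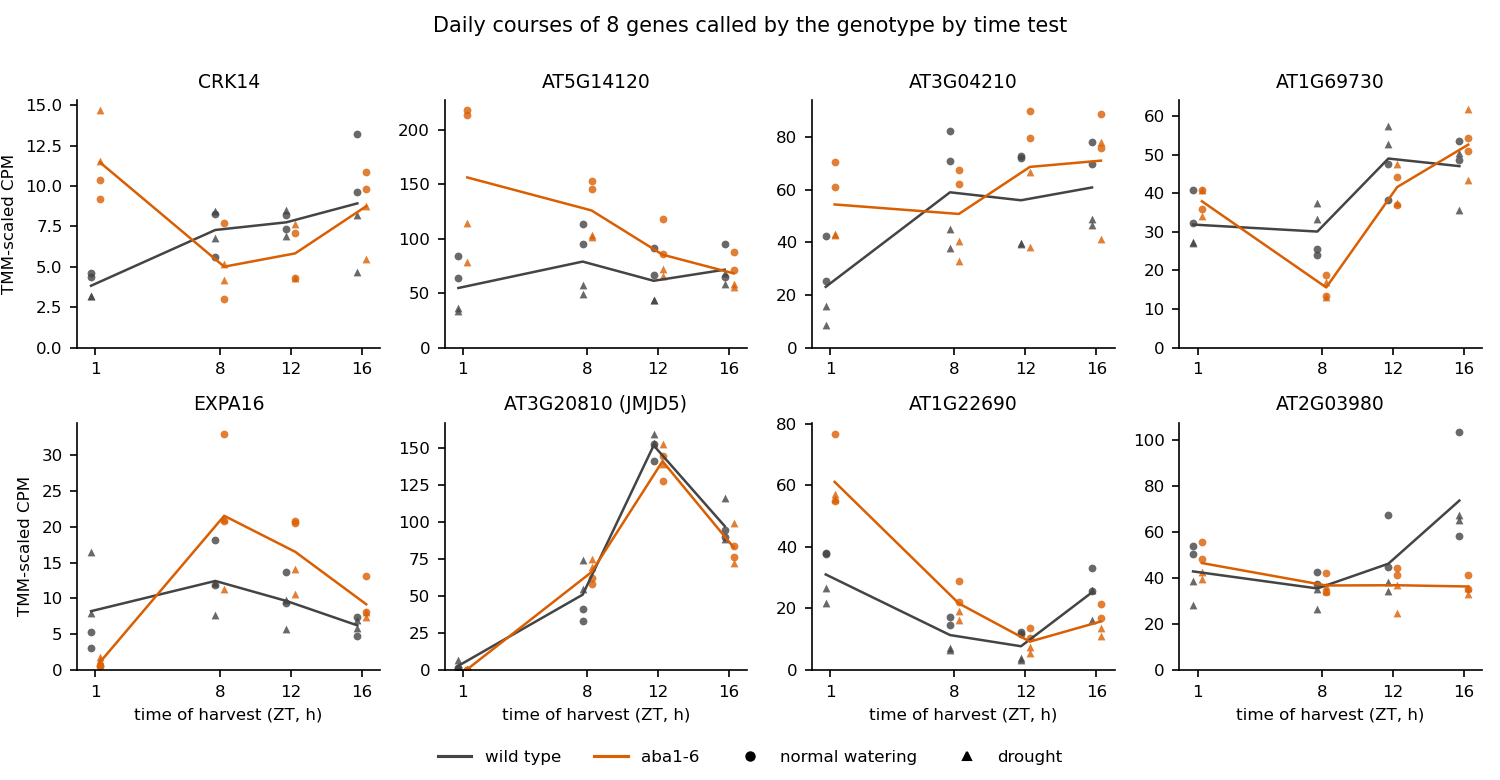
TMM-scaled CPM (y axis, linear, from 0) against time of harvest (ZT, h) for 8 of the genes with an altered course. Grey is wild type, orange aba1-6, circles normal watering, triangles drought, each point 1 library and each line the mean of 4. CRK14, AT5G14120 and AT3G04210 are higher in aba1-6 at ZT1, EXPA16 and AT3G20810 (JMJD5) lower at ZT1, AT1G69730 lower at ZT8, and AT1G22690 and AT2G03980 lower at ZT16.

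The gene relatively lower at ZT1 with the largest departure was EXPA16, an expansin, a protein that loosens cell walls. At ZT1 it was at 5.34, 3.09, 16.5 and 8.02 CPM in wild type and at 0.525, 0.625, 1.42 and 1.82 CPM in aba1-6. The aba1-6 values under normal watering there rest on few counts. At ZT8 it was at 18.15, 11.9, 12.1 and 7.64 CPM in wild type and at 32.9, 20.8, 21.1 and 11.4 CPM in aba1-6. EXPA16 swung from below wild type without overlap at ZT1 to higher means than wild type at the later times. Its departure was -3.48 ± 0.56 (log2, SE; edgeR adjusted p of the course 0.020), and that p rose to 0.063 without wild type under drought at ZT1, replicate 2, the highest of 4 losses in 32 fits.

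The other expansins called shared the direction of the departure. Of 13 EXPA genes tested, 3 had an altered course (0.479% of all genes tested), 3 departed downward at ZT1 (0.941% of all genes tested), and the median departure at ZT1 over the 13 was -0.35. EXPA11 was at 22.9, 30.9, 49.4 and 56.3 CPM in wild type at ZT1 and at 15, 12, 30.2 and 27.8 CPM in aba1-6. At ZT16 EXPA11 was at 26.2, 28.1, 28.2 and 19.8 CPM in wild type and at 39.2, 39, 37.4 and 41.9 CPM in aba1-6, so that aba1-6 then held the higher values, although that difference was not called (edgeR adjusted p = 0.144). EXPA1 was above wild type at all times, from a log2 difference of 0.84 at ZT1 to 1.63 at ZT8. Of 2 EXPB genes tested, EXPB3 was called. EXPB3 was lower in aba1-6 at ZT1, at 78.8, 81.5, 129.2 and 132.6 CPM against 143.2, 112.1, 203.8 and 211.7 CPM in wild type, and its largest departure, 0.56 ± 0.13 (log2, SE), lay at ZT16. The expansins were grouped after their values were seen.

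AT2G41190, an amino acid transporter by annotation, was the third gene named for a departure downward at ZT1. It was at 50.1, 36.5, 99.7 and 224.7 CPM in wild type at ZT1 and at 9.2, 5.93, 18.9 and 17.4 CPM in aba1-6. At ZT16 it was at 9.1, 8.98, 52.1 and 62.9 CPM in wild type and at 11.5, 8.67, 59.3 and 29.8 CPM in aba1-6. AT2G41190 stood apart at ZT1 and overlapped at ZT16. Its departure was -2.11 ± 0.42 (log2, SE; edgeR adjusted p of the course 0.041), and the call was lost in 23 of 32 leave-one-out fits, with p up to 0.149 without wild type under drought at ZT1, replicate 2.

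Among further genes relatively lower at ZT1, chosen after their values were seen, were enzymes of several pathways. THIC makes the pyrimidine part of thiamine, SPDS3 is annotated as a spermidine synthase and LOX1 is a lipoxygenase. THIC was at 229.2, 211.5, 350.7 and 360.1 CPM in wild type at ZT1 and at 127.3, 138.7, 179.8 and 204 CPM in aba1-6, while its ranges overlapped at ZT16. The departures were -1.07 ± 0.17 for THIC, -0.84 ± 0.14 for SPDS3 and -1.03 ± 0.19 for LOX1 (log2, SE). THIC passed from lower at ZT1 to slightly higher means afterwards, whereas SPDS3 had lower means in aba1-6 at all times, with the smallest log2 difference, -0.33, at ZT16. TET15, a tetraspanin, had 0 counts in all 4 aba1-6 libraries at ZT1 and is given no fold change.

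Of 23 genes of starch metabolism tested, 0 were called by the 3-degree-of-freedom test and 3 departed downward at ZT1 (0.941% of all genes tested). The departure at ZT1 was below 0 for 22 of the 23, against 53.8% of all genes tested, with a median of -0.38. The list's median difference was -0.38 at ZT1 and 0.04, 0.05 and 0.05 at ZT8, ZT12 and ZT16. PWD (listed as ATGWD3), the phosphoglucan, water dikinase of starch breakdown, was at 61.1, 58.8, 77 and 73.2 CPM in wild type at ZT1 and at 37.6, 43.9, 40.3 and 47.2 CPM in aba1-6. These ATGWD3 values did not overlap. Its departure was -0.75 ± 0.16 (SE), that of the transglucosidase DPE2 was -0.59 ± 0.15 and that of ISA2 (listed as DBE1), a debranching enzyme subunit, was -0.43 ± 0.10 on the log2 scale. Photosynthesis genes gave 23 of 23 departures below 0 at ZT1 with a median of -0.19 and 0 called, so a shared sign was seen there without any call. Reference genes gave 8 of 10 below 0 with a median of -0.07 and 0 called.

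Of 26 clock genes tested, 26 had a time effect in wild type and 24 in aba1-6, while 1 had an altered course (0.479% of all genes tested) and 2 departed at ZT1 (1.72% of all genes tested). The altered gene was AT3G20810, JMJD5, a jumonji-domain protein of the clock that peaks in the evening. At ZT1 it was at 1.34, 1.26, 2.27 and 6.76 CPM in wild type and at 0.263, 0.312, 0.78 and 0.819 CPM in aba1-6. At its peak at ZT12 AT3G20810 was at 141.4, 152.8, 153.3 and 159.1 CPM in wild type and at 144.8, 127.6, 152.7 and 138.9 CPM in aba1-6. The genotypes were apart in the trough and overlapped at the peak. The trough lies near the floor of detection. The aba1-6 libraries under normal watering at ZT1 held 7892442 and 6837167 counts in all, so 0.263 and 0.312 CPM rest on very few counts. The size of the trough difference is therefore uncertain. The departure at ZT1 was -2.28 ± 0.48 (log2, SE; edgeR adjusted p of the course 0.044). Without wild type under drought at ZT1, replicate 2, the departure was -1.47. The call was lost in 25 of 32 leave-one-out fits, with p up to 0.117 without aba1-6 under drought at ZT1, replicate 1.

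The promoter of AT3G20810 (TAIR10.1, RefSeq, chr3:7275395-7275694, + strand) is shown because clock proteins are known to act on evening elements (AAAATATCT, searched on both strands). The capitals mark 2 of them, beginning 10 and 37 bases after the annotated start.
AT3G20810: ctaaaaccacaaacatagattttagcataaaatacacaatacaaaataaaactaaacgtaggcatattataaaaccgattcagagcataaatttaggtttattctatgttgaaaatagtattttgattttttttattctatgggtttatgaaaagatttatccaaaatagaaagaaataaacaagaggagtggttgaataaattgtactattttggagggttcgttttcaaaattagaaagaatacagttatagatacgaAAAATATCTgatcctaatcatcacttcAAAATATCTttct

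LHY and CCA1, the morning transcription factors of the clock, were not called by the 3-degree-of-freedom test (edgeR adjusted p of 0.098 and 0.096). LHY was at 538.1, 566.1, 536.4 and 564.4 CPM in wild type at ZT1 and at 482.1, 506.6, 486.3 and 466.4 CPM in aba1-6. At ZT16 LHY was at 9.51, 13.4, 13.4 and 13.6 CPM in wild type and at 6.11, 6.78, 6.17 and 7.17 CPM in aba1-6. The genotypes did not overlap at either time, although the log2 difference of LHY at ZT1, -0.18, was not called. The departure of LHY at ZT1, 0.95 ± 0.24 (log2, SE; edgeR adjusted p = 0.028), reflects a log2 difference smaller at its peak than in its trough (-0.90 at ZT16). CCA1 averaged 466.1 ± 38 CPM (SD, n = 4) in wild type and 407.6 ± 37 CPM (SD, n = 4) in aba1-6 at ZT1. The largest departure lay at ZT12 for LHY (-1.004) and at ZT8 for CCA1 (-1.217, both log2). Neither passed edgeR's departure test at that time. DESeq2 called the courses of both genes, with adjusted p of 0.00867 for LHY and 0.000858 for CCA1. In edgeR, the fit of 16 group means called LHY (adjusted p = 0.0263). The edgeR fit of all 48 libraries called CCA1 (adjusted p = 0.0235). Each gene was thus called in 2 of the 11 other settings. TOC1 (adjusted p = 0.31) and GI (adjusted p = 0.52) were not called, and GI peaked at ZT8 at 293.8 CPM in wild type and 285.7 CPM in aba1-6.

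At ZT8 the gene whose departure passed its own test was AT1G69730, a wall-associated kinase family protein by annotation. It was at 24, 25.5, 37.4 and 33.5 CPM in wild type at ZT8 and at 18.7, 13.5, 17 and 13.2 CPM in aba1-6, without overlap. At ZT16 AT1G69730 was at 53.6, 48.5, 50.5 and 35.7 CPM in wild type and at 54.3, 51, 43.5 and 61.8 CPM in aba1-6. Its departure at ZT8 was -1.02 ± 0.18 (log2, SE; edgeR adjusted p of the course 0.0125). The other called genes with their largest departure downward at ZT8 included GLK2, a regulator of chloroplast development, and PORB, which reduces protochlorophyllide in the light. GLK2 was at 44.2, 43.3, 35.7 and 34.8 CPM in wild type at ZT8 and at 34.6, 31.4, 27.4 and 25 CPM in aba1-6, and its log2 difference was -0.42 at ZT8 and 0.45 at ZT12. Neither GLK2 (adjusted p = 0.069) nor PORB (adjusted p = 0.12) passed edgeR's departure test at ZT8. The AT1G69730 promoter (TAIR10.1, RefSeq, chr1:26231326-26231625, - strand), shown for its rank at this time, held none of the motifs searched and so has no capitals.
AT1G69730: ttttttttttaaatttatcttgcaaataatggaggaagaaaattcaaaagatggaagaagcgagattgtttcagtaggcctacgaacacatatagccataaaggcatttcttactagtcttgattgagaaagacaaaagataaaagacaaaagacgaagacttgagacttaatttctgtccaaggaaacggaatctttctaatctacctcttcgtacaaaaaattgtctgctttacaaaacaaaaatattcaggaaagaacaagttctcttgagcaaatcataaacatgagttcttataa

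At ZT16 the 3 departures that passed were all downward, those of AT1G22690, AT2G03980 and AT5G14120. AT1G22690, a gibberellin-regulated family protein by annotation, was at 11.6, 12.4, 3.84 and 3.18 CPM in wild type at ZT12 and at 33.1, 25.5, 16.4 and 26 CPM at ZT16. In aba1-6 it was at 13.7, 10.3, 5.41 and 7.62 CPM at ZT12 and at 17, 21.4, 11 and 13.8 CPM at ZT16, after 55, 76.7, 55.6 and 57.2 CPM at ZT1. AT1G22690 was above wild type without overlap at ZT1 (37.9, 37.7, 26.8 and 21.9 CPM) and had the lower mean at ZT16. Its departure at ZT16 was -1.39 ± 0.23 (log2, SE; edgeR adjusted p of the course 0.00538). AT2G03980, a GDSL-like lipase by annotation, was at 103.7, 58.2, 65.5 and 67.6 CPM in wild type at ZT16 and at 35.4, 41.3, 33 and 35.7 CPM in aba1-6. AT2G03980 departed by -0.99 ± 0.17 at ZT16 (log2, SE; edgeR adjusted p of the course 0.0135), and earlier in the day its ranges overlapped. All 4 of CRK14, AT1G69730, AT1G22690 and AT2G03980 kept their calls in every leave-one-out fit. The AT1G22690 promoter (TAIR10.1, RefSeq, chr1:8026876-8027175, + strand), shown for its rank at ZT16, holds an ABA-responsive element core 132 bases before the start, in capitals and on the opposite strand.
AT1G22690: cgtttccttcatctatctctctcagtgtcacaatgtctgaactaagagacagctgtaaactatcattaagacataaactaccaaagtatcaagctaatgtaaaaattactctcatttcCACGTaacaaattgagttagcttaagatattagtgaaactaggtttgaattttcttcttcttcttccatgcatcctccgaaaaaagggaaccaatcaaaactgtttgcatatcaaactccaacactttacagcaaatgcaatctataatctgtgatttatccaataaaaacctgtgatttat

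Over the promoters of 300 bases, the ACGTG core was found on either strand in 38.2% of genes that departed downward at ZT1, 29.9% of those that departed upward and 27.4% of all genes tested. In the ABA-induced list it was found in 62.5%. The windows of its called members NCED3, ABI1 and P5CS1, and that of PIP2B, held none of the motifs searched. The G-box CACGTG, which contains the core, was in 14.7%, 8.33% and 8.96%, and in 28.1% of the list. The evening element was in 6.47%, 3.47% and 3.12%. These shares describe the windows and were not tested.

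Of the 24 gene lists, 19 held no gene with an altered course and 16 held no gene called at ZT1 either. With 0.479% of all genes called, lists of this size would mostly hold none, so a count of 0 says little about a list. Heat shock genes gave 0 altered courses of 11 tested and 2 departures downward at ZT1, a call made for 0.941% of all genes tested. The 2 were HSP101 at -0.48 ± 0.13 and HSFB1 (listed as HSF4) at -0.73 ± 0.20 (log2, SE). Sugar signalling gave 0 of 13 and 1 departure downward, TPS5, a trehalose phosphate synthase-like protein, at -0.67 ± 0.14. Osmolyte synthesis gave 1 of 10, which was P5CS1. ABA receptors and SnRK2 kinases gave 0 of 14, photoperiodic flowering 0 of 18, light signalling 0 of 20, photoprotection 0 of 14 and carotenoid metabolism 0 of 16. DREB/CBF factors gave 0 of 13, carbon starvation 0 of 8, sucrose and SWEET transporters 0 of 12, flavonoid synthesis 0 of 16, salicylic acid and defence 0 of 15, and jasmonic acid 0 of 16. At ZT16, however, 15 of the 16 jasmonic acid genes departed downward (49.3% of all genes tested), with a median of -0.59. Of these 16, 7 were called lower at ZT16 (2.47% of all genes tested) and 0 higher. Their median departure was -0.94 under normal watering and -0.10 under drought. Guard cell markers gave 0 of 11, root markers 0 of 5, floral markers 0 of 2 and reference genes 0 of 10. Of the 14 ABA receptors and SnRK2 kinases, 6, 7, 5 and 4 were called higher in aba1-6 at ZT1, ZT8, ZT12 and ZT16 and 0 lower. Of all genes tested, 4.27%, 3.35%, 2.61% and 1.71% were called higher at those times. The median log2 difference of the 14 was 0.31, 0.43, 0.32 and 0.34.

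Within a single regime the test called 10 genes (0.0538%) under normal watering and 104 (0.559%) under drought, from a fit with 16 group means. Only 3 genes were on both lists, 30% of the former and 2.88% of the latter, namely EXPA11, AT5G14120 and AT1G20070. The direct test of whether the altered course differed between regimes called 0 genes (0%) with edgeR and 8 with DESeq2. In edgeR, 517 genes had an unadjusted p under 0.05, fewer than that threshold would pass among 18589 genes without any effect. The counts thus do not show that drought altered more courses. At the time of its largest departure under drought, 92 of the 104 genes (88.5%) departed in the same direction under normal watering, and 9 of the 10 did so the other way round. Measured in the same way over all genes tested, the sign was shared by 62.4%. The largest departure lay at ZT1 for 59 of the 104. With the replicate block the counts were 140, 469 and 12 for normal watering, drought and their difference. The drought count was 38 and 32 without aba1-6 under drought at ZT1, replicates 1 and 2, 60 without aba1-6 under drought at ZT8, replicate 2, and 68 without aba1-6 under drought at ZT16, replicate 1. It was 36 without wild type under drought at ZT1, replicate 2, and 178 without wild type under drought at ZT16, replicate 1. The normal watering count ran from 1 (without aba1-6 under normal watering at ZT1, replicate 1) to 13 and moved by over 1.5 times for 19 of the 32 libraries.

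**Figure D5:**
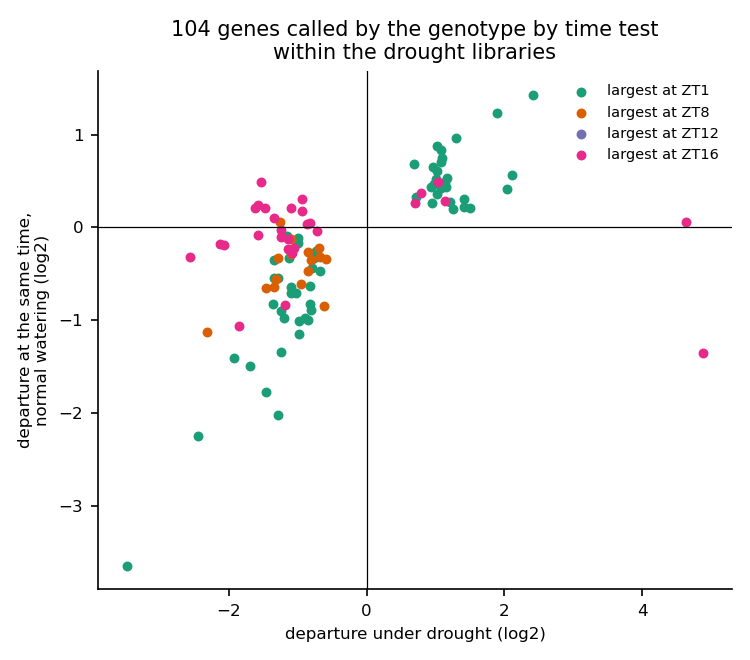
Each point is 1 of the 104 genes called within the drought libraries, at the time of its largest departure (colour). The x axis is the departure under drought and the y axis the departure at the same time under normal watering, both log2 and aba1-6 relative to wild type. The sign is shared by 92 of the 104.

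The same test of gi-2, a mutant of the clock and flowering gene GIGANTEA, against the same wild-type libraries called 866 of 18356 genes (4.72%). The comparisons share their 16 wild-type libraries, so the counts are only set side by side. Without a gi-2 library whose title and genotype tag name different genotypes, the count was 804.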

How the data were processed

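Poly(A) RNA was sequenced with the TruSeq kit, per the labels. The authors deposited unnormalized expected counts, which can be fractional; 98.6% of them were whole, and the unit was inferred from this and from the unequal totals. The column of 1 gi-2 library ends in an extra tab and was entered as another unit; it holds the authors' expected counts like the rest. The submitters' processing notes name TAIR10, Bowtie2, RSEM and edgeR. Roles, versions and strand use were not given in the sources used here, so reads of overlapping or antisense genes and of close paralogs may be shared. Most low whole counts were even, so counts may hold both mates of a pair, and no counting interval is given.

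Counts were rounded. Genes were filtered with filterByExpr, scaled by TMM (factors 0.841 to 1.125) and fitted in edgeR 4.0.16 (R 4.3.3, limma 3.58.1) with robust quasi-likelihood dispersions. The model held 8 means of genotype and time and an additive watering term, with 23 residual degrees of freedom; regimes were tested in a fit of 16 group means, with 16. The biological coefficient of variation was 13.9%. Calls needed a Benjamini-Hochberg adjusted p under 0.05 over all genes tested. Tests ran on simulated counts first. DESeq2 1.42.0, other scalings, filters, models and leave-one-out fits were alternatives. Of 26988 genes in the table, 26239 matched 1 locus of the annotation, and the other 749 (2.41% of counts) stayed under their own names. Several list symbols name no single gene in the table and were not measured.

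Named genes were, for each departure test and direction, up to 3 genes with the largest departure called by both tests, with a mean of at least 5 CPM, no group of 4 libraries at 0 and the same sign under both regimes. Added were up to 4 called genes of each list, and GI, ABA1, LHY, CCA1 and TOC1. The comparison, the lists and the tests were chosen with earlier results of these data known.

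Replicate numbers come from the titles (1 title has none). Same-numbered libraries deviated together within wild type (all 28 pairs of groups above 0.1, r from 0.146 to 0.575), less so within aba1-6 (8 of 28) and across genotypes (3 of 8). Blocked counts are therefore printed where they move a count by over 1.5 times.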

Additional observations from a re-analysis of the deposited data

Results flagged for a closer look

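In 112 groups of 4 libraries (14 called genes, each genotype and time), 2 held a library far from the other 3 by Dixon's criterion on log2(CPM + 1). Each group pools 2 libraries of either watering regime, so the rate of about 5% for 4 like libraries does not apply. A gene that shifts with watering may hide such a library. EXPA16 in aba1-6 at ZT16 was at 13.2 CPM in normal watering replicate 1 and at 7.39, 8.1 and 8.11 CPM in the others, a gap of 0.842 of the range. AT1G22690 in aba1-6 at ZT1 was at 76.7 CPM in normal watering replicate 2 and at 55, 55.6 and 57.2 CPM in the others, a gap of 0.886 of the range.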

How the results depend on the processing

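The largest departure of every named gene kept its sign in all alternatives. The split of departures at ZT1, 145 higher and 175 lower, turned to 167 and 165 with DESeq2 size factors, 289 and 132 with library totals, 344 and 338 with DESeq2, 268 and 240 with all 48 libraries, 335 and 331 with 16 group means, and 204 and 169 without the 2 shallowest libraries. The cause of the changes was not tested. The altered courses (89) numbered 88 with DESeq2 size factors, 110 with library totals, 99 with no filter and 95 at 5 CPM, and these shared 86, 73, 81 and 89 genes with the 89. DESeq2 called 361 courses, 682 departures at ZT1, 32 at ZT8 and 17 at ZT16, and 67, 259 and 8 genes under normal watering, under drought and for their difference. The fit of 16 group means called 304 courses and 666, 25 and 20 departures at ZT1, ZT8 and ZT16. A watering effect for each genotype gave 137 courses and 0 departures at ZT8; for these last 2 fits the regimes have no separate value. All 48 libraries gave 167 courses, 508 and 13 departures at ZT1 and ZT8, and 46, 255 and 5 genes for normal watering, drought and difference. No filter gave 2 departures at ZT8 and 324, 595 and 125 genes for the regimes and their difference. Library totals gave 3 at ZT8 and 4 for the difference, and leaving out the 2 shallowest libraries gave 3 at ZT8. The replicate block within genotypes gave 226 courses, 694, 12 and 13 departures at ZT1, ZT8 and ZT16, and 140, 469 and 12 for the regimes and their difference; the block shared by both genotypes gave 135 courses, 3 departures at ZT8, and 24 and 183 for the regimes. The block within genotypes changed the call of no named gene, and the shared block ended that of AT3G20810 (adjusted p = 0.0519). Of the 11 settings other than leave-one-out, AT3G20810 was called in 7, AT2G41190 and P5CS1 in 8, and NCED3 and AT3G04210 in 9. The other named genes with a called course were called in all 11. Leaving out single libraries gave 15 to 148 courses, departures of 95 to 480 at ZT1, 0 to 10 at ZT8, 0 to 0 at ZT12 and 0 to 11 at ZT16, time effects of 8849 to 9791 genes in wild type and 8272 to 9685 in aba1-6, regime counts of 1 to 13 (normal) and 32 to 178 (drought), 0 to 3 for their difference, and 725 to 925 courses in gi-2.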

Other observations

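Chosen after their values were seen, 2 genes showed a large departure at ZT16 under drought and little or none under normal watering. CIPK20, a kinase that binds calcineurin B-like proteins, departed by 4.63 under drought and by 0.05 under normal watering on the log2 scale. XTH6, a xyloglucan endotransglucosylase, departed by -2.12 and by -0.18. The direct test of a difference between regimes called neither gene, so a dependence on drought was not shown. Each departure rests on 2 libraries per genotype, watering and time and is given without an SE. Wild type under drought at ZT16, replicate 2, held only 2289812 counts.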
